A study of Mus musculus with 6 samples.

Results

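Type I interferon-stimulated genes were followed in RNA sequencing of splenic CD8+ T cells from mice on either of 2 diets. The set was a list of 36 named genes, found by matching the Ensembl identifiers of the deposited table of normalized counts to mouse symbols, and 36 of 36 were among its 19323 genes. The donors were wild-type C57BL/6 mice, 6 weeks of age at the start, kept for 7 weeks on ND or on MCDHFD. The labels tie the animals to models of MASH, in which fat and inflammation damage the liver, and do not spell out either diet. Each diet had 3 libraries. Whether these are 3 animals is not said, and a p-value therefore speaks only of the spread among libraries, which may be technical. The list was put together with earlier results of these data known.

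Type I interferons are secreted proteins that bind a receptor made of Ifnar1 and Ifnar2. The receptor's kinases, Jak1 and Tyk2, activate a transcription factor complex that contains Stat2 and Irf9 and enters the nucleus. It binds the interferon-stimulated response element, a DNA sequence with a repeated GAAA core, and switches on genes whose products sense viral RNA, block viral replication or feed back on the pathway. In T cells a low, tonic interferon signal keeps many of these genes expressed in the absence of infection.

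Of the 36 genes, 26 had a promoter window in RefSeq's table for GRCm38.p6, the build also called mm10. A window ran from 250 bases before to 50 bases after an annotated start, and these 26 genes had 31 windows. The response element core was searched on both strands as GAAA, then any 2 bases, then GAAA, with overlapping matches counted separately. It was found in 12 of the 26 genes (46.2%), against 3.44% of the 32851 windows of all genes. These shares have unlike units, since a gene counted if any of its windows matched. A match is a description of the letters and not a measured binding site. The 200 bases before the start follow for 5 genes that were lower in MCDHFD and for Rsad2, which did not pass the test. They are written 5′ to 3′ on the strand of the gene, with every match in capitals.
Isg15, chr4:156200819-156201018, minus strand: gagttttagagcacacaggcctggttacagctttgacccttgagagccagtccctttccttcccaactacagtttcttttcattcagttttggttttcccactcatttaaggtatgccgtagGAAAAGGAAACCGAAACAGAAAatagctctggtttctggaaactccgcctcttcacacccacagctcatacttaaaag
Ifit1, chr19:34640689-34640888, plus strand: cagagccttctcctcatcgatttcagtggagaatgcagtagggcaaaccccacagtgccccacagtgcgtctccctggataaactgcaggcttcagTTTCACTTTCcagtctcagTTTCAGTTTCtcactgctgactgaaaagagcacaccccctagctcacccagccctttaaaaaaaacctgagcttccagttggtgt
Ifit3, chr19:34583329-34583528, plus strand: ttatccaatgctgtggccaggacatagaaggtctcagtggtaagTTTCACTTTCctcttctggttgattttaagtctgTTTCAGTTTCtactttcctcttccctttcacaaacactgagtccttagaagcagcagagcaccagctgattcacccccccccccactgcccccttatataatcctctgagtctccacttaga
Oas3, chr5:120777660-120777859, minus strand: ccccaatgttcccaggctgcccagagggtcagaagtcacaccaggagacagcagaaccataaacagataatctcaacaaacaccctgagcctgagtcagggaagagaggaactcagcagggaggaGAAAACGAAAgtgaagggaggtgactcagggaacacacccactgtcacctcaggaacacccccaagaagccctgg
Oas1a, chr5:120907526-120907725, minus strand: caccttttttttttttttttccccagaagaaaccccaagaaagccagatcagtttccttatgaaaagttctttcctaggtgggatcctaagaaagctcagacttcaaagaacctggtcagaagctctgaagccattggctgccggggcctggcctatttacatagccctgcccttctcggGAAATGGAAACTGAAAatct
Rsad2, chr12:26456453-26456652, minus strand: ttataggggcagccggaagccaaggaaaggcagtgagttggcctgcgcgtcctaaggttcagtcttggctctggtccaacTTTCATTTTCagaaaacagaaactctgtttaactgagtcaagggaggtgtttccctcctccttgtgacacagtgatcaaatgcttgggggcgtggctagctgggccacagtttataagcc
In Isg15 the capitals are 3 overlapping matches, the first beginning 78 bases before the start, and in Oas1a they are 2 overlapping matches, the first beginning 20 bases before the start. Ifit1 and Ifit3 each hold 2 matches, and the letters of the first and of the second match are the same in both genes. Oas3 and Rsad2 hold 1 match each.

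In 3 genes with RNA-binding products the match lay after the annotated start, and 24 bases around it are shown for the sensors Ddx58 and Ifih1 and the kinase gene Eif2ak2.
Ddx58, chr4:40239807-40239830, minus strand: gaggcagTTTCGATTTCctatggc
Ifih1, chr2:62646207-62646230, minus strand: gagaatcGAAACAGAAAccgatct
Eif2ak2, chr17:78882538-78882561, minus strand: ccgccggGAAAACGAAAcagaaga
The 12 genes with a match had a median log2 fold change between the diets of -0.78 (range -2.36 to 0.18), and the 14 genes with a window but no match had -0.99 (range -2.91 to 0.24). The test described with the values below called 10 of the former and 11 of the latter lower in MCDHFD. The share of all tested genes called lower was 28.1%. Of the 2 medians, that of the genes with the core was not the lower. A second, palindromic motif, TTCNNNGAA, was found in 6 of the 26 genes (23.1%) and in 8.30% of all windows, again by gene and by window. Oas1a, Bst2 and Eif2ak2 held both motifs, whose matches overlapped in Bst2 only.

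**Figure D1:**
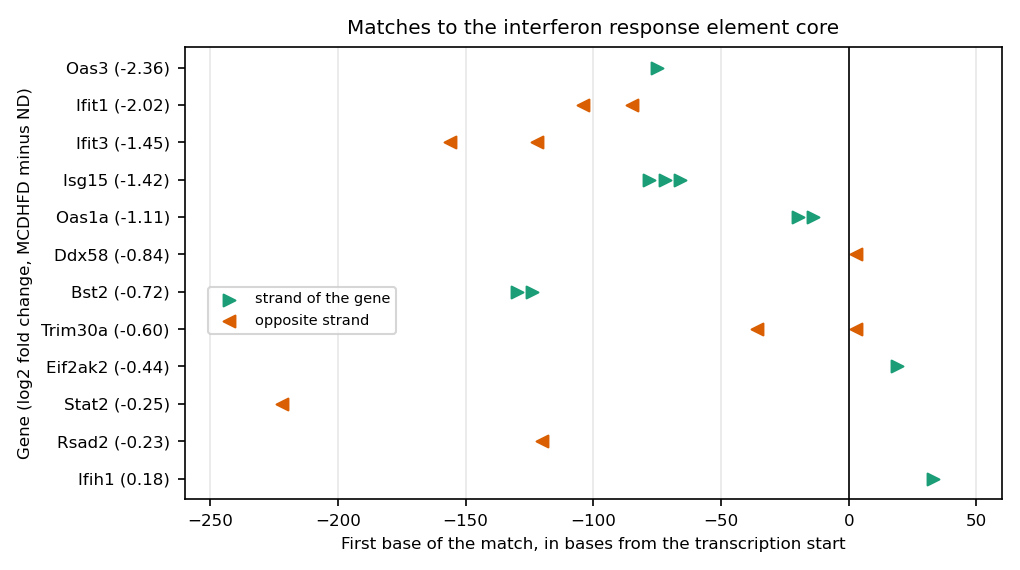
Position of each response element core match in the 12 genes that hold one, in bases from the annotated start on the x axis, with triangles for the strand of the match and the log2 fold change (MCDHFD minus ND) after each name. Matches lie on both sides of the start and the genes run from -2.36 for Oas3 to 0.18 for Ifih1, with both windows of Trim30a drawn on its row.

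The libraries summed to between 14119816 and 14752121 normalized counts. All libraries held the labelled CD8 T cell transcripts, with Cd8a at 13490.5 to 14172 normalized counts in ND and at 4884 to 5772 in MCDHFD. Of 17 CD8 T cell markers 17 were lower in MCDHFD, and their summed share of normalized counts went from 0.723% to 0.729% in ND to 0.338% to 0.384% in MCDHFD. The 12 macrophage markers were higher in 12 of 12, with a summed share of 0.318% to 0.391% in ND and 1.66% to 2.02% in MCDHFD. In bulk RNA, fewer cells of a type and less RNA per cell cannot be told apart. Results are therefore given on the deposited scaling and, beside it, after a rescaling that gives these 17 markers an equal average log2 level in every library. The rescaling shifted the median change over all tested genes by 1.02 on the log2 scale. It holds only the average of the markers equal. Under it 7 of the 17 markers were called lower and 6 higher, against 3.39% and 83.1% of all tested genes. Their log2 fold changes ran from -0.53 to 0.65, so a call within that range is not a change against every marker.

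The comparison asked how interferon-stimulated transcripts differed between the diets. Most were lower in MCDHFD on the deposited scaling, while with the CD8 T cell markers held equal 12 were lower and 16 higher. On the deposited scaling 30 of 36 (83.3%) fell and none rose in limma at an adjusted p under 0.05, where 28.1% of the 13430 tested genes were lower and 30.3% higher. All 36 genes passed the filter of a mean of at least 10 normalized counts. The median log2 fold change was -1.07 for the 36 genes and 0.00 for all tested genes, on log2 of the value plus 1, a scale that understates the change of low genes. In 19 genes (52.8%) the fall was at least 2-fold, against 7.66% of all tested genes, and in 8 (22.2%) at least 4-fold, against 1.68%. The 3 libraries of MCDHFD lay below the 3 of ND in 30 genes (83.3%), against 32.3% of all tested genes, and the diets overlapped in the other 6. Held to equal CD8 T cell markers, the 12 lower genes were 33.3% of the 36, where 3.39% of all tested genes were lower and 83.1% higher. The median of the 36 was then -0.04 and that of all tested genes 1.03. Of the other scalings and tools, quantile scaling called 32 genes lower, against 33.9% of all tested genes. On the reads recovered from 5 libraries, without ND replicate 3, edgeR called 30 lower, against 25.7% of all tested genes, and DESeq2 29, against 23.6%.

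**Figure D2:**
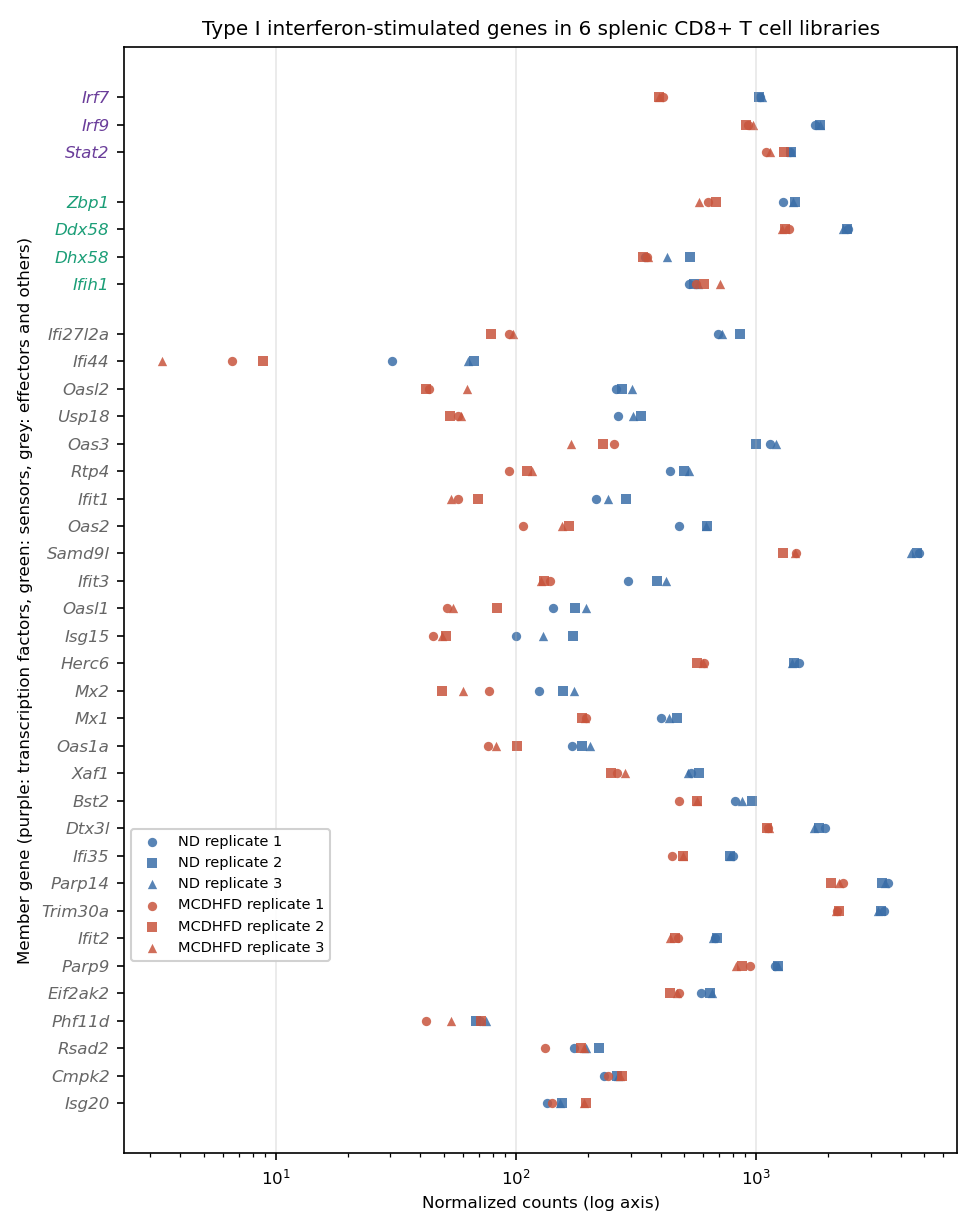
Normalized counts (log x axis) of the 36 genes in each library, with ND in blue, MCDHFD in red and the replicate number as the marker shape. Within each class genes are ordered by fold change, and red and blue markers are separate in 30 genes and overlap in Dhx58, Ifih1, Phf11d, Rsad2, Cmpk2 and Isg20.

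The transcription factors of the response are Irf7, which drives further interferon production, and Stat2 and Irf9, which are parts of the DNA-binding complex. All 3 were lower in MCDHFD on the deposited scaling (log2 fold changes -0.25 to -1.38). With the CD8 T cell markers held equal Irf7 was lower (-0.35), Stat2 higher (0.78) and Irf9 (0.07) did not pass. The median of all tested genes under that scaling was 1.03. Irf7 (chr7:141262706-141266481) was measured at 1043, 1025 and 1056 normalized counts in ND and at 410.3, 395 and 395 in MCDHFD, which gave -1.38 on the log2 scale (SE 0.06, limma adjusted p = 3.74e-07). The spread within each diet was small beside the gap. Irf9 (chr14:55603571-55610030) was at 1764, 1854 and 1840.0 in ND and at 922, 906 and 974 in MCDHFD (log2 fold change -0.96, SE 0.06, limma adjusted p = 1.49e-06). Stat2 (chr10:128270559-128292849) was at 1380.3, 1402 and 1402 in ND and at 1096, 1303 and 1139 in MCDHFD. Its change was the smallest of the 30 (-0.25 on the log2 scale, SE 0.07, limma adjusted p = 0.0162). The call was lost without MCDHFD replicate 3 (-0.22, limma adjusted p = 0.0556). Exons of Irf7 overlap those of Phrf1, and exons of Irf9 those of Rnf31. In all, 12 of the 36 genes share exonic bases with another gene. The others are Dhx58, Oasl1, Eif2ak2, Usp18, Herc6, Parp14, Parp9, Dtx3l, Ifi35 and Rtp4. No source used here gives the strand setting of the counting, and reads of such partners cannot be told apart.

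The 4 sensors were split. Zbp1, which binds left-handed nucleic acids, and Ddx58, the gene of the RNA sensor RIG-I, were lower in MCDHFD, while Dhx58, the gene of the regulator LGP2, and Ifih1, the gene of the long double-stranded RNA sensor MDA5, did not pass. On equal CD8 T cell markers Ddx58 (0.19), Dhx58 (0.73) and Ifih1 (1.21) were higher and Zbp1 (-0.11) did not pass, against a median of 1.03 for all tested genes. Zbp1 (chr2:173206612-173218923) was at 1298, 1448 and 1418 normalized counts in ND and at 629.6, 681 and 577 in MCDHFD (log2 fold change -1.14, SE 0.08, limma adjusted p = 3.79e-06). Ddx58 (chr4:40203773-40239828) was at 2411, 2399 and 2308 in ND and at 1367, 1317 and 1287 in MCDHFD (log2 fold change -0.84, SE 0.05, limma adjusted p = 2.03e-06). In both genes the diets were separate.

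Ifih1 (chr2:62595798-62646255) was at 526, 552 and 575 normalized counts in ND and at 565, 607 and 707 in MCDHFD. The lowest MCDHFD library lay inside the ND range, and the log2 fold change of 0.18 (95% interval -0.03 to 0.39) did not pass (limma adjusted p = 0.126). Without MCDHFD replicate 1 the gene was called higher (0.25, limma adjusted p = 0.0446). Dhx58 (chr11:100694884-100704271) was at 345, 530.2 and 428 in ND and at 351, 337 and 353 in MCDHFD. Here ND replicate 1 lay among the MCDHFD libraries while the other two ND libraries were above them. The log2 fold change of -0.30 (95% interval -0.62 to 0.02) did not pass (limma adjusted p = 0.0993), but without ND replicate 1 it did (-0.45, limma adjusted p = 0.01). Dhx58 shares exonic bases with the antisense gene Dhx58os.

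Set against each other, the classes differed in size of change. The median log2 fold change was -0.57 for the 4 sensors, -0.96 for the 3 transcription factors and -1.17 for the 29 effectors and others on the deposited scaling. With the CD8 T cell markers held equal these medians were 0.46, 0.07 and -0.14, against 1.03 for all tested genes. The mean log2 value of the sensors exceeded that of the effectors and others by 0.998, 1.01 and 0.954 in the ND libraries and by 1.75, 1.68 and 1.74 in the MCDHFD libraries. This difference is taken within a library, so the scaling between libraries hardly enters it. The ND and MCDHFD libraries did not overlap in it, at 0.989 ± 0.0309 and 1.72 ± 0.0400 (SD, n = 3). No test was made, since the genes were chosen with results known, and of the 4 sensors it was Ifih1 and Dhx58 that had the smaller changes. When the RNA-binding OAS genes Oas1a, Oas2 and Oas3 and the kinase gene Eif2ak2 were counted as sensors too, the sensor median was -0.97, next to the -0.96 of the transcription factors, and that of the 25 remaining effectors and others was -1.17.

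**Figure D3:**
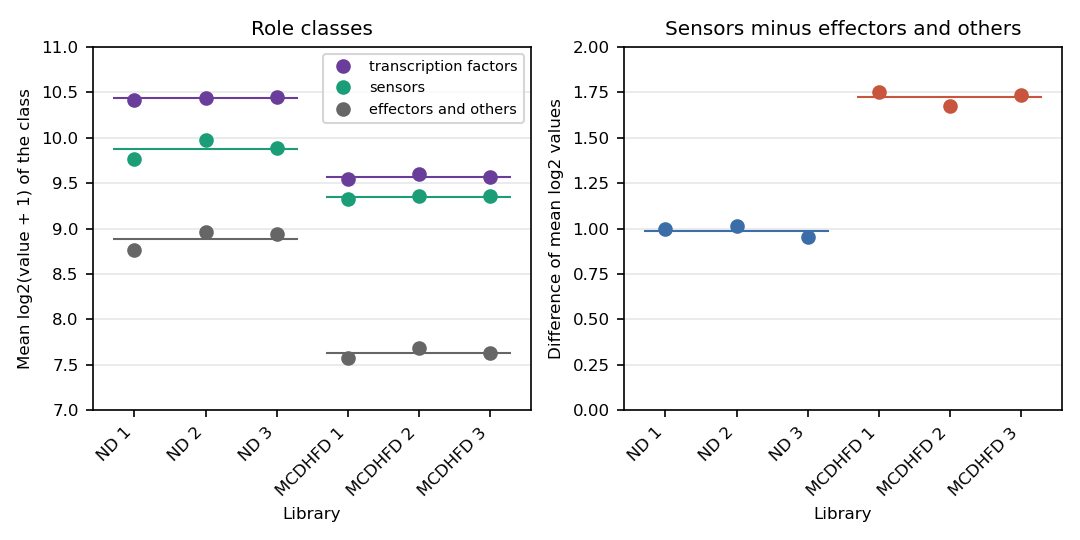
Left, mean log2(value + 1) of each role class in each library, with a line at the mean of each diet; right, the same for the sensors minus the effectors and others. In MCDHFD all 3 classes are lower on the deposited scaling, and the difference goes from 0.989 to 1.72. With equal CD8 T cell markers the medians of sensors (0.46) and transcription factors (0.07) turn positive, below the 1.03 of all tested genes.

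Of the effectors, all 5 OAS genes were lower (log2 fold changes -2.50 to -1.11, median -2.01). OAS proteins make the second messenger that activates RNase L when they bind double-stranded RNA, and Oasl1 and Oasl2 are their OAS-like relatives. Under the equal-marker scaling Oas2 (-0.99), Oas3 (-1.33) and Oasl2 (-1.48) stayed lower and Oas1a (-0.08) and Oasl1 (-0.42) did not pass. Oas3 (chr5:120753098-120777661) was at 1143, 996 and 1206 normalized counts in ND and at 257, 230.0 and 169 in MCDHFD (log2 fold change -2.36, SE 0.15, limma adjusted p = 2.36e-06). Its neighbour Oas2 (chr5:120730333-120749853) was at 479, 624 and 619.6 in ND and at 107, 166 and 155 in MCDHFD (log2 fold change -2.01). Oas1a (chr5:120896256-120907521), in the same gene cluster, was at 170.3, 188 and 203 in ND and at 76.2, 101 and 82.8 in MCDHFD (log2 fold change -1.11). The point estimate of Oas1a was thus the smallest of the 3 in this cluster. Oasl2 (chr5:114896936-114912234) was at 260.4, 275 and 303 in ND and at 43.3, 42.3 and 62.6 in MCDHFD (log2 fold change -2.50), and Oasl1 next to it had a log2 fold change of -1.44. Oas1a has close relatives in its cluster, so its value is uncertain where reads fit more than 1 copy.

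The 3 IFIT genes, whose products bind viral RNA that lacks host cap marks or bind each other, were all lower on the deposited scaling. With equal CD8 T cell markers Ifit1 (-0.999) and Ifit3 (-0.43) were lower and Ifit2 (0.47) was higher. The median of all tested genes was then 1.03. Ifit1 (chr19:34640871-34650009) was at 215, 287 and 242 normalized counts in ND and at 57.4, 69.8 and 53.7 in MCDHFD (log2 fold change -2.02, SE 0.16, limma adjusted p = 9.3e-06). Ifit3 (chr19:34583531-34588731) was at 293, 388 and 423 in ND and at 138, 131 and 128 in MCDHFD (log2 fold change -1.45, SE 0.14, limma adjusted p = 3.39e-05). Ifit2 (chr19:34550694-34576419) was at 674, 686 and 661 in ND and at 472, 460.0 and 438 in MCDHFD (log2 fold change -0.56, SE 0.07, limma adjusted p = 0.000111). Ifit1 and Ifit3 are the pair with identical matches in the promoter stretches above, and the core was not found in the windows of Ifit2. A link between matches and the size of the fall was not tested. Over the 26 genes with a window the median was -0.78 with the core and -0.99 without. Ifit3 has a close copy, Ifit3b, so its value is uncertain.

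The ubiquitin-like protein Isg15, its protease and pathway inhibitor Usp18 and its ligase Herc6 were lower. At equal CD8 T cell markers Usp18 (-1.37) and Herc6 (-0.26) stayed lower and Isg15 (-0.40) did not pass. Usp18 (chr6:121245906-121270917) was at 267, 331 and 308 normalized counts in ND and at 57.4, 53.1 and 59.3 in MCDHFD (log2 fold change -2.39, SE 0.13, limma adjusted p = 1.03e-06). Herc6 (chr6:57581000-57664632) was at 1504, 1437 and 1406 in ND and at 609, 570.0 and 602 in MCDHFD (log2 fold change -1.29). Isg15 (chr4:156199424-156200818) was at 99.9, 173 and 129.7 in ND and at 45.2, 51.1 and 49.2 in MCDHFD (log2 fold change -1.42, SE 0.21, limma adjusted p = 0.000421). ND replicate 1 was the lowest ND library for Usp18 and Isg15 and the highest for Herc6. Over the whole list ND replicate 1 was the lowest ND library in 24 of 36 genes (66.7%), against 36.3% of all tested genes, and without it the same 30 genes and Dhx58 were called lower.

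Smaller falls were measured for the ADP-ribosylation genes. Parp9 and Dtx3l encode partners in one ubiquitin ligase complex and lie head to head on chromosome 16, where their exons overlap, and Parp14 lies nearby on the same chromosome. Parp14 (log2 fold change -0.66), Dtx3l (-0.72) and Parp9 (-0.47) were lower on the deposited scaling. With the CD8 T cell markers held equal all 3 were called higher (0.37, 0.32 and 0.56), as were 83.1% of all tested genes. Their changes lay below the median of all tested genes, 1.03. Parp14 (chr16:35832874-35871544) was at 3560.4, 3355 and 3443 normalized counts in ND and at 2312, 2053 and 2206 in MCDHFD. Dtx3l (chr16:35926511-35939151) was at 1938, 1828 and 1748 in ND and at 1116, 1107 and 1132 in MCDHFD, and Parp9 (chr16:35938470-35972605) went from 1222 ± 23.1 to 880.2 ± 56.6 (SD, n = 3). The 3 genes differed between diets by more than their spread within a diet.

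Eif2ak2, the gene of the RNA-activated kinase PKR, went from 628 ± 35.8 to 461 ± 19.3 normalized counts (log2 fold change -0.44). It was called higher (0.59) with the CD8 T cell markers held equal, below the median of 1.03 for all tested genes. Transcripts of both Mx genes fell too. GTPases of this family block viral nucleocapsids, and whether these transcripts give working protein in these mice was not tested. Mx1 went from 435 ± 33.3 to 192 ± 4.05 (log2 fold change -1.17) and Mx2 from 152 ± 25.3 to 62.2 ± 14.1 (-1.28). Neither passed with the markers held equal (-0.14 and -0.26). GENCODE M21 lists Mx2 as a polymorphic pseudogene in this genome, which is of the C57BL/6 strain.

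Among the genes with direct antiviral products, Samd9l, Trim30a and Bst2 were lower on the deposited scaling, of which Trim30a and Bst2 turned higher with equal CD8 T cell markers, and Rsad2, Cmpk2 and Isg20 did not pass. Samd9l (chr6:3372257-3399572), a restraint on translation and cell growth, was at 4777, 4662 and 4431 normalized counts in ND and at 1471, 1288 and 1456 in MCDHFD (log2 fold change -1.72, SE 0.07, limma adjusted p = 1.93e-07). It stayed lower (-0.69) with the CD8 T cell markers held equal. Trim30a (log2 fold change -0.60) and Bst2 (-0.72), the tetherin gene, were higher (0.43 and 0.31) under that scaling. Both lay below the median of all tested genes there, 1.03. In ND Bst2 was at 818, 966 and 874 normalized counts and in MCDHFD at 479, 566 and 568, and Trim30a went from 3314 ± 97.6 to 2183 ± 32.6 (SD, n = 3). Bst2 is also a surface marker of plasmacytoid dendritic cells.

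Rsad2 (chr12:26442746-26456452), the gene of viperin, and Cmpk2 (chr12:26469204-26479837), a mitochondrial nucleotide kinase gene, are divergent neighbours whose products belong to the same antiviral nucleotide pathway. Rsad2 was at 174, 221 and 196 normalized counts in ND and at 132, 186 and 191 in MCDHFD (log2 fold change -0.23, 95% interval -0.60 to 0.15, limma adjusted p = 0.266). Cmpk2 was at 233, 263 and 267 in ND and at 242, 276 and 272 in MCDHFD (log2 fold change 0.05, 95% interval -0.18 to 0.28, limma adjusted p = 0.695). The diets overlapped in both genes, and the intervals exclude a 2-fold fall. Isg20 (chr7:78913424-78920396), an RNA exonuclease gene, was at 135, 156 and 152 in ND and at 141, 197 and 191 in MCDHFD (log2 fold change 0.24, 95% interval -0.10 to 0.58, limma adjusted p = 0.202). Without MCDHFD replicate 1 it was called higher (0.39, limma adjusted p = 0.0282). On the equal-marker scaling Rsad2 (0.80), Cmpk2 (1.08) and Isg20 (1.27) were higher, near the median of 1.03 for all tested genes. Cmpk2, Isg20 and Ifih1 were the 3 genes of the 36 that lay above the median of all tested genes on the deposited scaling.

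The last group holds genes of less defined function, and with them the lowest fold changes of the list. Ifi27l2a (chr12:103442167-103443680) was at 694, 853 and 719 normalized counts in ND and at 93.2, 78.6 and 97.3 in MCDHFD (log2 fold change -3.06, SE 0.12, limma adjusted p = 2.26e-07). Ifi44 (chr3:151730922-151749960) was at 30.3, 67.1 and 63.3 in ND and at 6.59, 8.85 and 3.36 in MCDHFD (log2 fold change -2.91, SE 0.43, limma adjusted p = 0.000399). The MCDHFD values of Ifi44 were 7, 9 and 3 reads, and its SE was the largest of the list. Rtp4 (chr16:23520291-23614222), a receptor chaperone, was at 439.5, 499 and 527 in ND and at 93.2, 111 and 116 in MCDHFD (log2 fold change -2.18, SE 0.12, limma adjusted p = 1.13e-06). These 3 genes stayed lower with the CD8 T cell markers held equal (-2.03, -1.96 and -1.16). The apoptosis regulator gene Xaf1 (log2 fold change -1.03) and Ifi35 (-0.71) were lower on the deposited scaling. Under the other Xaf1 did not pass and Ifi35 was higher (0.32), below the median of 1.03 for all tested genes. Phf11d, at 71.3 ± 3.63 in ND and 55.9 ± 14.8 in MCDHFD, did not pass (log2 fold change -0.38, 95% interval -0.86 to 0.11, limma adjusted p = 0.162), but was called lower without MCDHFD replicate 2 (-0.57, limma adjusted p = 0.0437).

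**Figure D4:**
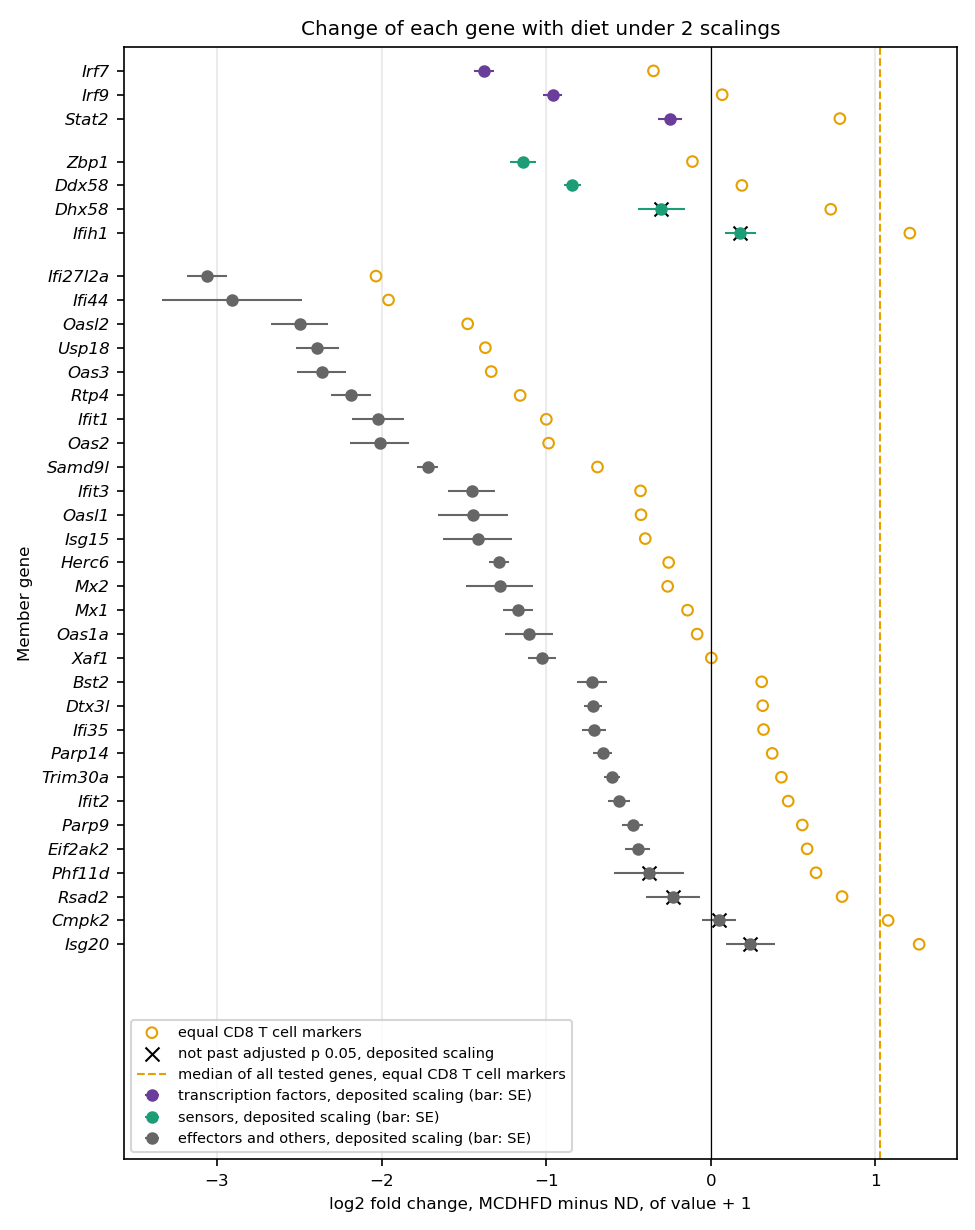
log2 fold change (MCDHFD minus ND) of each gene on the deposited scaling (filled points, bars are the SE, crosses mark genes not past an adjusted p of 0.05) and with the CD8 T cell markers held equal (open circles). The open circles are shifted to the right, so that 16 genes are called higher and 12 lower, with Ifi27l2a at -2.03 as the lowest; the dashed line is the median of all tested genes, 1.03.

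Levels were compared between genes per kilobase of annotated exon. In ND the mean of Ifi27l2a was the highest of the 36 at 1631 normalized counts per kilobase, followed by Bst2 (981), Samd9l (852) and Trim30a (806), and that of Ifi44 was the lowest (8.75). In MCDHFD Bst2 (596), Trim30a (531) and Ifi35 (278) were highest, and Ifi27l2a, at 194, was in place 8. Ifi27l2a also had the fewest annotated exonic bases of the list, 463.

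Genes upstream of the response did not move as one. Of 31 genes of interferon production and signalling, 27 were in the table, and 11 of these (40.7%) were lower and 9 (33.3%) higher in MCDHFD (median log2 fold change -0.11), against 28.1% lower and 30.3% higher of all tested genes. The receptor chains went opposite ways: Ifnar1 was at 2837, 2829 and 2753 normalized counts in ND and at 2359, 1901 and 2091 in MCDHFD (log2 fold change -0.41, limma adjusted p = 0.0016), and Ifnar2 at 1050.4, 1055 and 1086 in ND and at 1814, 1801 and 1916 in MCDHFD (0.79, limma adjusted p = 3.53e-06). The kinase genes Jak1 (-0.70) and Tyk2 (-0.71) were lower. Ifnar1 (0.62), Jak1 (0.34) and Tyk2 (0.32) were higher with the CD8 T cell markers held equal. Under that scaling 24 of the 27 genes (88.9%) were higher and 3 (11.1%) lower, against 83.1% higher and 3.39% lower of all tested genes. Ikbke, a kinase gene that acts on interferon regulatory factors, had a log2 fold change of -1.78, and Ifng, interferon gamma, of -2.13. The feedback inhibitor gene Socs3 (1.54), the transcription factor gene Irf5 (1.37) and the RNA receptor gene Tlr7 (1.57) rose. Tlr7 was at 210.5, 568 and 257 in ND and at 1436, 633 and 884 in MCDHFD, and its call was lost in DESeq2 on 5 libraries (1.33, adjusted p = 0.0844). Ifnb1, Ifna1, Ifna2 and Ifna4 had no row in the table.

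Of 40 further interferon-stimulated genes, 25 (62.5%) were lower and 11 (27.5%) higher in MCDHFD (median log2 fold change -0.49), against 28.1% and 30.3% of all tested genes. Ifit3b (-2.59), Ifi213 (-2.52) and Ifit1bl1 (-2.25) fell most, as relatives of genes described above or of the Ifi200 family of DNA-binding proteins. Ifi207 (3.24), of that same family, and the membrane restriction factor genes Ifitm2 (2.84) and Ifitm1 (2.58) rose most. Ifi207 was at 376, 418 and 394 normalized counts in ND and at 3464, 3777 and 3986 in MCDHFD, whereas Ifi213 was at 5346, 5352 and 5182 in ND and at 992, 819 and 961 in MCDHFD. The Ifi200 genes have similar copies, so single values are uncertain. Held to equal CD8 T cell markers, 11 of the 40 (27.5%) were lower and 24 (60%) higher, against 3.39% and 83.1% of all tested genes, and the 6 genes named here kept their direction.

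**Figure D5:**
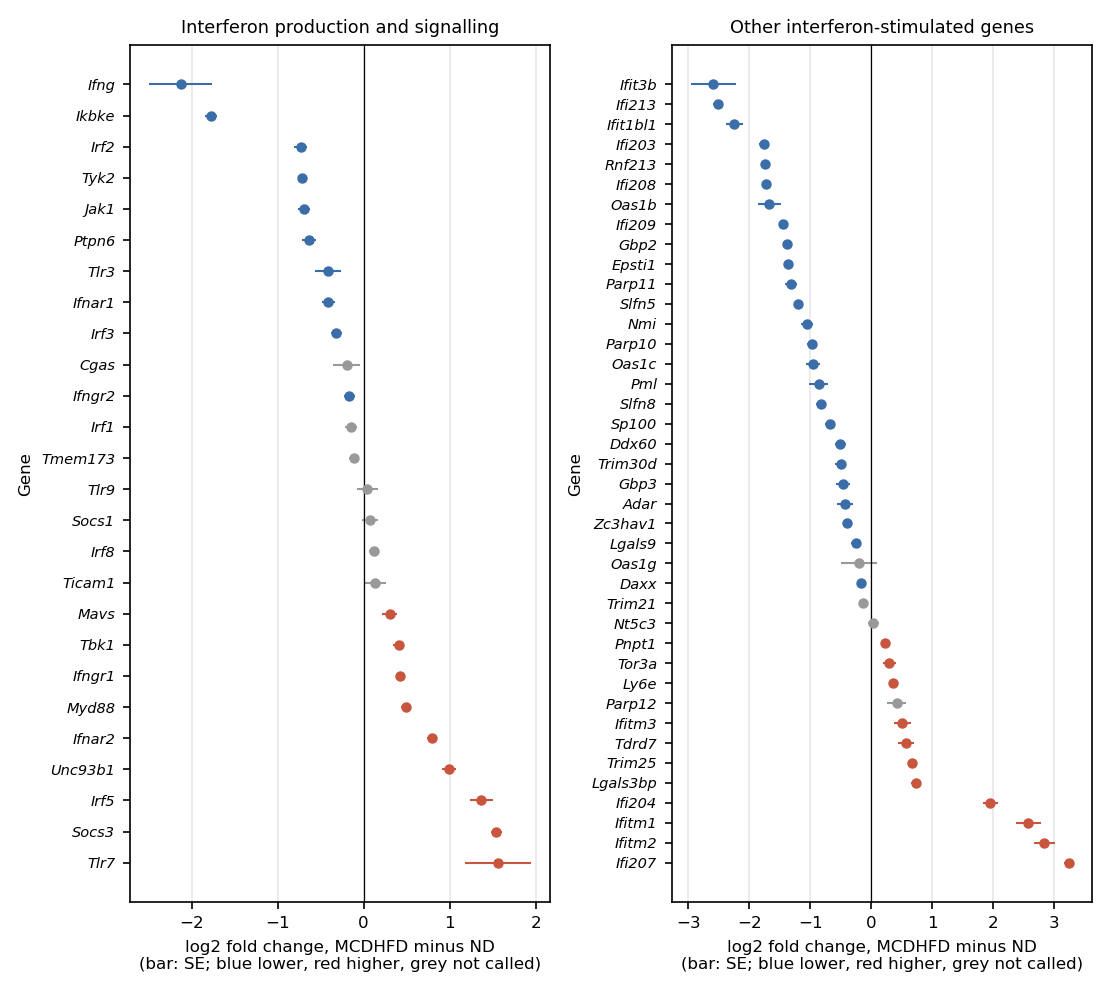
log2 fold change (MCDHFD minus ND, bars are the SE) of 26 of the 27 genes of interferon production and signalling (left) and 40 further interferon-stimulated genes (right) on the deposited scaling. Blue points are called lower, red higher and grey neither, with 10 blue and 9 red on the left and 25 blue and 11 red on the right; with the CD8 T cell markers held equal 24 genes of each list were higher, against 83.1% of all tested genes.

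Markers of other cell types also differed between these libraries. Plasmacytoid dendritic cells are strong producers of type I interferon. Of 9 of their markers other than Bst2, 8 were tested, 6 were lower and none was called higher. The 2 not called were Tcf4, in which the diets overlapped, and Irf8, at 2105 to 2144 normalized counts in ND and 2249 to 2437 in MCDHFD. The sum of the 9 was 5649 to 6427 in ND and 2992 to 3176 in MCDHFD. Its largest terms were Irf8 and Ccr9 (mean 2044 in ND, 184 in MCDHFD). The lectin gene Siglech, a defining marker, was at 93.0, 60.3 and 67.3 in ND and at 2.82, 2.95 and 1.12 in MCDHFD. Cox6a2, too low to be tested, was at 5.87, 10.7 and 8.91 in ND and at 0 in all MCDHFD libraries. Of 10 conventional dendritic cell markers, 9 were lower and 1, Itgax, higher, and Cd209a was at 0 in all MCDHFD libraries. The sum of the 10 was 49899 to 53267 in ND and 23685 to 24225 in MCDHFD. Its largest terms were Cd74 (mean 22629 in ND, 8090 in MCDHFD), Ccr7 (16304 and 10824) and H2-Ab1 (9820 and 3469.5). The sum therefore says little of genes at low values such as Xcr1 (294 and 31.0). In ND the mean of Ccr7 was above that of Cd8a (13784), and whether Ccr7 came from dendritic cells was not tested. The 9 B cell markers were lower in 9 of 9, with a sum of 7023 to 9058 in ND and 1725 to 2176 in MCDHFD. Of 9 neutrophil markers, 8 were tested and higher, and the sum of the 9 was 808 to 1601 in ND and 8882 to 15590.4 in MCDHFD. The neutrophil marker not tested, Ly6g, was at 20.6, 2.92 and 2.97 in ND and at 2.82, 5.90 and 4.47 in MCDHFD, so that the diets overlapped. Erythroid markers were higher in 9 of 9, with a sum of 1825 to 1942 in ND and 11072 to 18438 in MCDHFD. Of 4 tested natural killer cell markers 3 were lower: Klre1 (mean 44.7 in ND, 4.06 in MCDHFD), Eomes (791 and 158) and Gzma (94.4 and 27.7). Klrb1c (28.7 and 31.7) was not called. Whether each marker came only from the cell type it is listed for, and not from CD8 T cells, was not tested. The part of these other cell types in the falls of the interferon-stimulated genes was not tested.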

How the data were processed

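Libraries of splenic CD8+ T cell RNA (TRIzol) were prepared by a kit for whole RNA or one for mRNA, per the labels' protocols. The submitters' processing notes name mm10. No source used here names the aligner, the counter or the annotation. The deposited table holds a signal, normalized counts per the file headers. In 5 of 6 libraries 100% of values were whole multiples of 1 step per library at a tolerance of 0.01. These were taken as reads (13188812 to 15482458). ND replicate 3, where the value of a read is near 1, was not accepted as recovered and was left out of count tests. In MCDHFD replicate 2, which was accepted, the value of 1 read was 0.983. The omission is therefore a choice and does not mark ND replicate 3 as different in kind. Intervals cover only the spread between libraries.

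Symbols were matched for 19202 of 19323 genes, and coordinates and exonic lengths come from GENCODE M21 (mm10), promoter sequences from RefSeq (GRCm38.p6). Genes with a mean of at least 10 were tested, 13430 in all, on log2(value + 1) with limma 3.58.1 (intensity trend, diet as the only term, R 4.3.3) and Benjamini-Hochberg adjustment at 0.05 over all of them. Alternatives were pseudocounts, filters, scalings, a replicate block, leaving out each library, and edgeR 4.0.16 and DESeq2 1.42.0 on recovered reads. All 36 genes of the list are described; of the 2 other lists, the 6 largest changes past the threshold are named, and Ifnar1, Ifnar2, Jak1 and Tyk2 always. For 1 gene that this rule also names, the result is not reported here. The genes, lists, scalings and tests were chosen with earlier results of these data known. The fit was tested on simulated data. Library pairs of 1 diet with recovered reads differed by more than sampling noise (chi-square per degree of freedom 6.11 to 11.5).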

Additional observations from a re-analysis of the deposited data

How the results depend on the processing

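The fall of 30 of the 36 genes was also called, for the same 30, with pseudocounts of 0.5 and 5, without a filter, with TMM scaling, in edgeR and with the replicate block. DESeq2 called 29, all but Stat2, a mean of at least 50 left 29, since Ifi44 was not tested, and quantile scaling called 32, with Dhx58 and Phf11d added. The labels do not say whether replicate numbers pair the libraries. Same-numbered libraries had correlations of their deviations across genes of 0.0365, 0.0621 and 0.0057, and differently numbered ones of -0.0573 to 0.0197. With 3 libraries per diet these values cannot decide it. In the fit with the replicate block 30 genes were lower, against 27.5% of all tested genes, and none higher. Leaving out each library gave 29 to 31 lower genes and 0 to 2 higher, and medians of -0.49 to -0.64 for the sensors and of -0.94 to -0.99 for the transcription factors.

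The scaling to equal CD8 T cell markers changed most. It gave 12 lower and 16 higher of the 36 (median -0.0396), 3 lower and 24 higher of the pathway list, and 11 lower and 24 higher of the further list. Of all tested genes 3.39% were then lower and 83.1% higher, with a median of 1.03. The medians became 0.0694 for transcription factors, 0.46 for sensors and -0.14 for effectors and others. Signs turned to positive for Irf9 (0.0694), Stat2 (0.78), Ddx58 (0.19), Dhx58 (0.73), Ifit2 (0.47), Eif2ak2 (0.59), Parp14 (0.37), Parp9 (0.56), Dtx3l (0.32), Rsad2 (0.80), Bst2 (0.31), Trim30a (0.43), Ifi35 (0.32), Xaf1 (0.0035), Phf11d (0.64), Ifnar1 (0.62), Jak1 (0.34) and Tyk2 (0.32). All of these positive values lay below the median of all tested genes under that scaling. Under quantile scaling the medians were -1.16 for all 36, -1.02 for transcription factors and -1.26 for effectors and others. On the deposited scaling the median of the widened sensor class was -0.97. Cmpk2, not called, was at -0.0221 under quantile scaling and ran from -0.0115 (without ND replicate 1) to 0.110 with 1 library left out. These data cannot separate the share of cells from the RNA of each cell, and low genes such as Ifi44 are limited by their few reads.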
